A study of Mus musculus with 8 samples.

Results

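The 49 genes described here encode proteins of the presynaptic terminal: synaptic vesicle proteins, the SNARE machinery, calcium sensors, the active zone and vesicle endocytosis. They were chosen by gene symbol, and all 49 had a row and a test among the 26229 genes of the authors' deposited table. RNA was measured by sequencing of polyadenylated transcripts. The cells were primary cortical neurons of mouse embryos at E16.5, kept 12 days in culture. There were 4 libraries of wild-type neurons (WT) and 4 of the genotype H2BE-KO/mCherry-KI, in which the gene of the histone variant H2BE is knocked out and mCherry knocked in. The labels call them biological replicates and do not say whether each came from a separate litter, so the errors below measure the spread between these samples. Each fold change below, with its standard error (SE) and adjusted p-value, was taken from that table and set as knockout over wild type, with 4 libraries on each side. A gene was called where the adjusted p of the DESeq2 Wald test, corrected over 18085 tested genes, lay under 0.05.

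Neurons store transmitter in synaptic vesicles that dock at the active zone, a protein scaffold facing the synaptic cleft. Vesicle VAMP pairs with syntaxin-1 and SNAP-25 on the plasma membrane to form the SNARE complex, complexin and synaptotagmin hold this complex ready, and calcium binding to synaptotagmin triggers fusion. The ATPase NSF and its SNAP adaptors then take the complex apart, and dynamin, endophilin, amphiphysin and synaptojanin retrieve the membrane. Most of these proteins exist as paralogs that cortical cell types and ages use in different proportions.

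The direction of the comparison was read from the targeted gene, because the file header names none. H2bc21, the gene of H2BE, stood at -3.45 on the log2 scale (SE 0.19, adjusted p = 4.49e-68) in the authors' deposited table once the sign was set so that the knockout is lower, which puts the knockout at 9.12% of wild type. Were the true sign opposite, rises would read as falls and falls as rises throughout. Values per library were not used here. In their place each gene is given by its mean normalized count over the 8 libraries and by the genotype levels this mean and the fold change imply, which are approximate and carry no SD. A level compared between genes is divided by exon length, as normalized counts per kb.

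Of the 49 genes, 13 rose and 12 fell in the knockout, so that 25, or 51.0%, were called. Among all tested genes the share called was 21.8%, with 11.0% higher and 10.9% lower. Presynaptic genes were abundant, with a median of 1565 normalized counts per kb against 105 over all tested genes, and genes of high count were called more often. Of 6808 tested genes with a mean count of 1000 or more, 30.6% were called, 15.6% higher and 15.0% lower, beside 21 of the 44 members at that level (11 higher and 10 lower). The members' median log2 fold change was -0.08 and that of all tested genes -0.02. The median of the 13 rises was 0.75 and that of the 12 falls -0.66. A further 7 members had an unadjusted p under 0.05 and were not called: Syngr1, Snap25, Cplx2, Syt1, Rims1, Erc1 and Bin1. The calls rest on a normal null for the Wald statistic. Against a t distribution (6 degrees of freedom) no member was called, and 1 gene, the target, was called over the whole table.

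**Figure D1:**
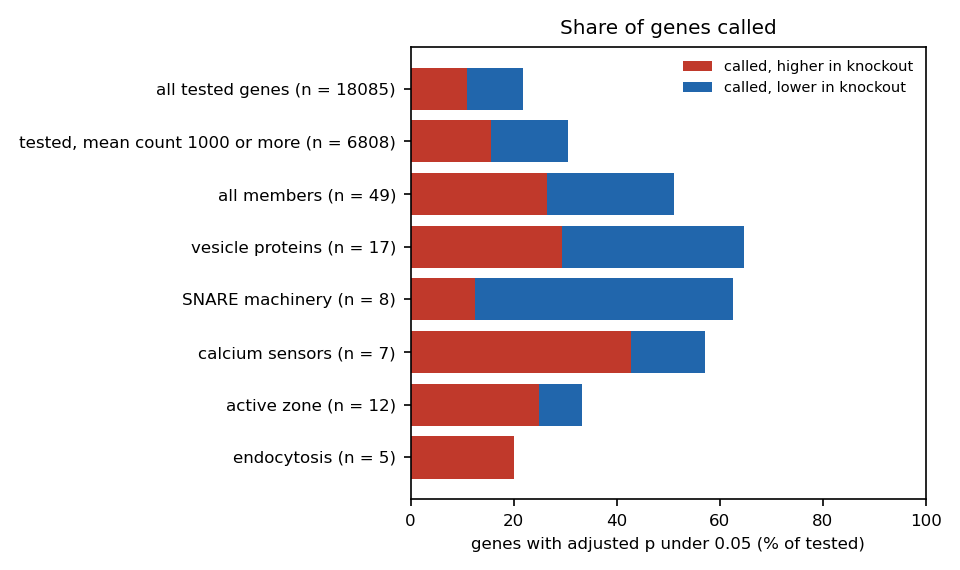
Share of genes called at an adjusted p under 0.05 (horizontal axis, % of tested genes), with red for higher and blue for lower in the knockout. Vesicle, SNARE and calcium sensor genes were called in 64.7%, 62.5% and 57.1% of cases, beside 30.6% of tested genes with a mean count of 1000 or more, and endocytosis genes in 20%.

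By role, vesicle proteins gave 5 rises and 6 falls among 17 genes, the SNARE machinery 1 rise and 4 falls among 8, calcium sensors 3 rises and 1 fall among 7, the active zone 3 rises and 1 fall among 12, and endocytosis 1 rise among 5. Median log2 fold changes by role were -0.14, -0.32, 0.24, 0.02 and -0.00 in that order. When each fold change was set against the median of tested genes of like exon length, the medians were -0.01, -0.34, 0.19, -0.06 and 0.01, so that the small values of the active zone and of endocytosis changed sign. Differences between roles were not tested.

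**Figure D2:**
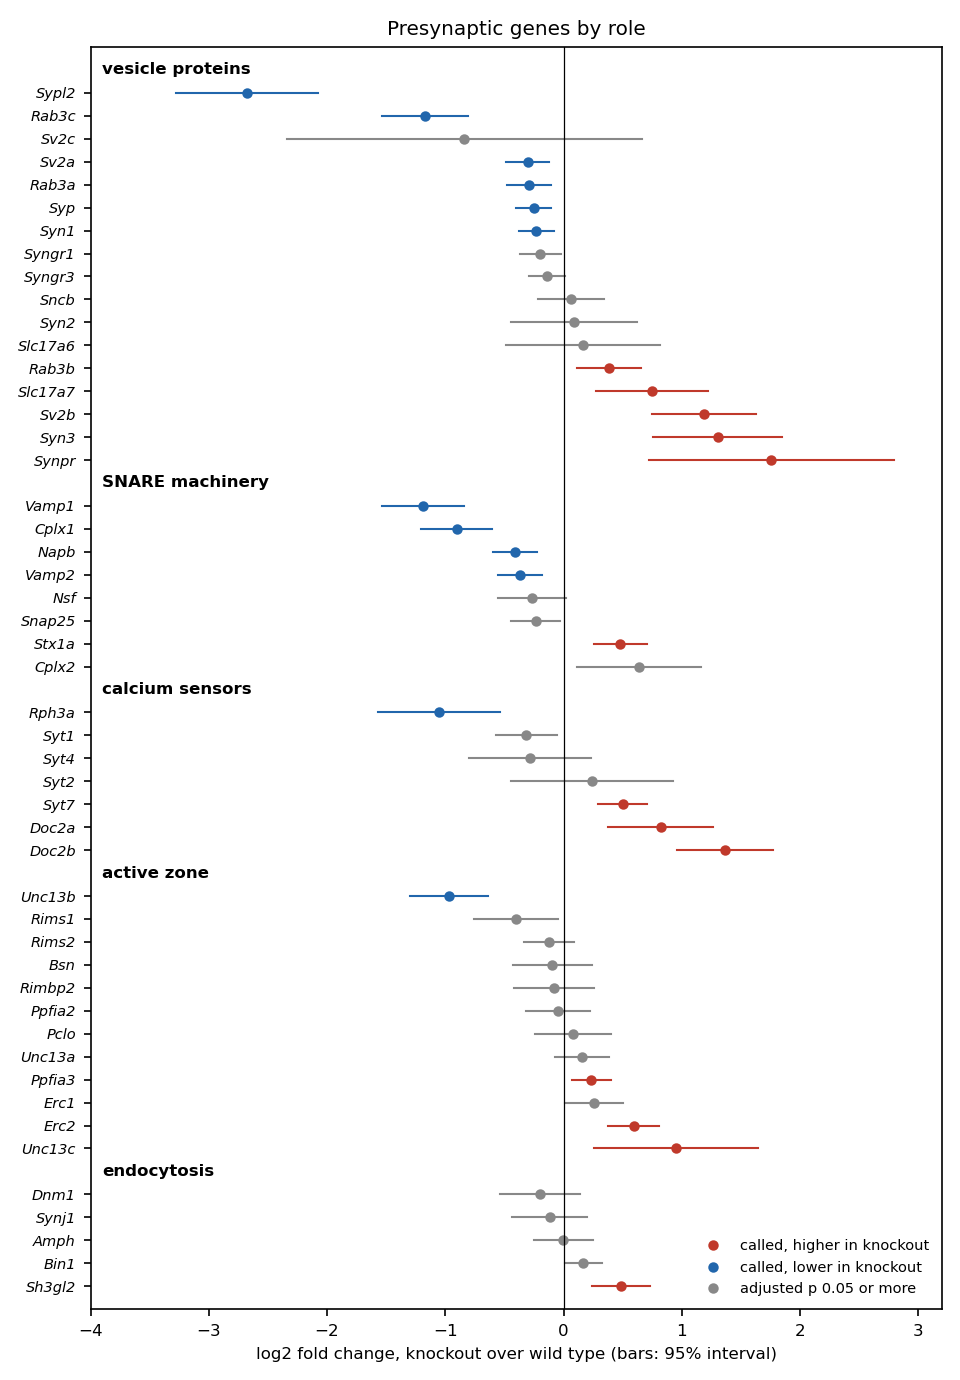
Log2 fold change, knockout over wild type (horizontal axis), of each of the 49 genes by role, with points for the estimate and bars for the 95% interval from 4 against 4 libraries. Blue marks 12 genes lower, red 13 genes higher and grey 24 genes not called. The points run from -2.68 for Sypl2 to 1.76 for Synpr, and the widest bar is that of Sv2c.

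The 250 bases before the RefSeq start site were read for the members, and 39 had an entry (build GRCm38.p6). The windows of 3 pairs of paralogs that moved in opposite directions are shown. They let the sequence before each RefSeq start be set beside the gene's change. Sv2a, Rab3c and Unc13b are the lower and Sv2b, Rab3b and Unc13c the higher genes. Each is printed 5′ to 3′ on the gene's strand, without bases that GENCODE M21 annotates as exon of that gene. By that annotation the Rab3c window lies within the gene, whose 5′ end on the minus strand is at 110280996. Capitals mark 4 short motifs, searched on both strands and free to overlap. The GC box, bound by Sp-family factors, was searched as GGGCGG. The cAMP response element was searched by its half-site, written TGACG. The core promoter element known as the TATA box was searched as TATAAA. The E-box, a site of basic helix-loop-helix factors, was searched as CACGTG.

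Sv2a, chr3:96180977-96181150, plus strand: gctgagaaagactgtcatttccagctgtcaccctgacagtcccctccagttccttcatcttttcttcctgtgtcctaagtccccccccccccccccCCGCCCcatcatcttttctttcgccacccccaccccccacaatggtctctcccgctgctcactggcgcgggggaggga

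Sv2b, chr7:75309263-75309512, minus strand: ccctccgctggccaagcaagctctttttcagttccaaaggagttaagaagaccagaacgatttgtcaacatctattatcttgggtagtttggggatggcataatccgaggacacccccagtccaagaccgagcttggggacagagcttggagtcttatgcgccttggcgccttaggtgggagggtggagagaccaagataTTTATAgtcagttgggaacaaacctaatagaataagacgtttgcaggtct

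Rab3c, chr13:110280207-110280456, minus strand: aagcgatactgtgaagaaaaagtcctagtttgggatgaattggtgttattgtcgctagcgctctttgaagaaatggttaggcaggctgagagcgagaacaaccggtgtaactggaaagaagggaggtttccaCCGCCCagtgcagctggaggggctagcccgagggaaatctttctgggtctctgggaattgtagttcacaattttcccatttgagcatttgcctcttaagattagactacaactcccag

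Rab3b, chr4:108878820-108879062, plus strand: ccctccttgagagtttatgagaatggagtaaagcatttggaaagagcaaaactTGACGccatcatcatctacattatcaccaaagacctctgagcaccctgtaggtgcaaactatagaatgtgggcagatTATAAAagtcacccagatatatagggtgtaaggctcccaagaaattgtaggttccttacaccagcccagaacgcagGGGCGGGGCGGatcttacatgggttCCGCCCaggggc

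Unc13b, chr4:43058703-43058952, plus strand: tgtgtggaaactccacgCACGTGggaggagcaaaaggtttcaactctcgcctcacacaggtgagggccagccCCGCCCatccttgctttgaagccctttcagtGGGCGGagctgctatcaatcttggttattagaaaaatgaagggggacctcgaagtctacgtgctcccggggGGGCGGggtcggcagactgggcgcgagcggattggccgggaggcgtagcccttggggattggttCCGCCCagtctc

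Unc13c, chr9:73969038-73969287, minus strand: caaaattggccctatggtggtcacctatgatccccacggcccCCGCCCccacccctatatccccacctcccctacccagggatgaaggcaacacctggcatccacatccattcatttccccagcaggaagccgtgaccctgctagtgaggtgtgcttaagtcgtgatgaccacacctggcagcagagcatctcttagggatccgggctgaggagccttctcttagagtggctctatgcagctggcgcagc

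The GC box was found in 28 of 39 member windows, or 71.8%, against 32.7% of all 32851 windows of this length. It was in 7 of the 9 windows of higher genes, 9 of the 11 of lower genes and 12 of the 19 of genes not called. Each member's window was the entry nearest an annotated transcript start, a choice not made for all windows. Member windows were also richer in CG dinucleotides, with a median of 16 against 6 over all windows. TATAAA was found in 2 member windows, those of Sv2b and Rab3b, both higher genes, or 5.13% against 12.4% of all windows. The Sv2b match is on the opposite strand, and distance from the start was not considered. TGACG was in 4 of 9 higher genes, 2 of 11 lower genes and 3 of 19 genes not called, with 23.1% of member windows and 17.8% of all windows. The full element TGACGTCA was in 2 windows, those of Syn1, which fell, and Sh3gl2, which rose, or 5.13% against 1.546% of all windows. CACGTG was in 7.69% of member windows and 6.02% of all. A match is a description of the window only.

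Among the vesicle membrane proteins of the synaptophysin family, the abundant member fell by little and the scarce ones moved far. Syp, the gene of synaptophysin and one of the most abundant vesicle proteins, had an implied level of 32528 normalized counts in wild type and 27313 in the knockout. Its log2 fold change in the authors' deposited table was -0.25 (SE 0.08, adjusted p = 0.0072). Synpr, the gene of synaptoporin, went from an implied 642 to 2171 counts, a 3.38-fold rise (95% interval 1.65 to 6.92, adjusted p = 0.00689). Its SE of 0.53 exceeded that of 99.2% of the 500 tested genes nearest in mean count, so its libraries scattered widely. Sypl2 (ENSMUSG00000027887), a synaptophysin relative best known from skeletal muscle, fell to 15.7% of wild type (95% interval 10.3 to 23.7, adjusted p = 2.04e-15), from an implied 83.6 to 13.1 counts. It had the lowest mean count of all members, 48.3, and at 11.04 counts per kb it stood far below Syp at 5742 per kb. Sypl2 lies on the minus strand of chromosome 3, from 108211472 to 108226648 in GRCm38, 11.99 Mb from the targeted gene. The synaptogyrins Syngr1 and Syngr3, related tetraspan vesicle proteins, were not called, at log2 fold changes of -0.20 (SE 0.09, adjusted p = 0.103) and -0.14 (SE 0.08, adjusted p = 0.189).

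Synapsins bind the vesicle surface and keep vesicles in clusters. Syn1 fell slightly, from an implied 17626 to 15023 counts (log2 fold change -0.23, SE 0.08, adjusted p = 0.0169). Syn3, the synapsin made early in development, rose 2.47-fold (95% interval 1.69 to 3.596, adjusted p = 5.89e-05 in the authors' deposited table), from an implied 976 to 2408 counts. Syn2 lay at 0.09 with an SE of 0.27, and its interval of -0.45 to 0.62 leaves room for a change in either direction. Per kb, Syn3 was the scarce member: it made up an implied 1.14% of summed synapsin level in wild type and 3.05% in the knockout. Exons of Syn3 overlap those of Timp3 on the opposite strand over 1733 bases. The library kit is stranded per the labels, but the use of strand in counting is not given in the sources used here, so reads of the pair may not be separated. Timp3 was at -0.17 (SE 0.41, adjusted p = 0.819) with a mean count of 239, against 1692 for Syn3.

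The genes of the SV2 proteins, transporter-like glycoproteins of the vesicle, are the first of the pairs whose start-site windows are printed, and they moved in opposite directions. Sv2a, whose product binds the antiepileptic drug levetiracetam, fell from an implied 33210 to 26896 counts (log2 fold change -0.30, SE 0.09, adjusted p = 0.00893). Sv2b (ENSMUSG00000053025, minus strand of chromosome 7 from 75114894 to 75309262) rose 2.27-fold (95% interval 1.68 to 3.09, adjusted p = 4.86e-06 in the authors' deposited table), from an implied 5428 to 12347 counts. The implied share of Sv2b in summed SV2 level per kb was 8.11% in wild type and 19.98% in the knockout. Sv2c had the widest error of all members: its log2 fold change of -0.84 had an SE of 0.77, above that of 99.8% of genes of like mean count, and its interval ran from -2.34 to 0.67. Sv2a is the member closest to the targeted gene, 25.6 kb from it on chromosome 3, and the effect of the altered locus on Sv2a cannot be told apart here from that of losing H2BE.

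Rab3 proteins are vesicle GTPases that bind RIM and rabphilin. Rab3c (ENSMUSG00000021700, minus strand of chromosome 13 from 110054187 to 110280996), with a mean normalized count of 48391, fell to 44.4% of wild type (95% interval 34.4 to 57.1, adjusted p = 2.74e-08). Its implied level went from 67042 to 29739 counts. Rab3a fell from an implied 18242 to 14873 counts (log2 fold change -0.29, SE 0.09, adjusted p = 0.013). Rab3b rose from an implied 4784 to 6245 counts (0.38, SE 0.14, adjusted p = 0.0312 in the authors' deposited table). Summed per kb, the implied level of the 3 Rab3 genes in the knockout was 72.25% of wild type, with Rab3c going from 36.8% to 22.6% of that sum.

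Of the vesicular glutamate transporters, which load glutamate into vesicles, Slc17a7 (VGLUT1) rose 1.68-fold (95% interval 1.21 to 2.33, adjusted p = 0.0126 in the authors' deposited table). Its implied level went from 7806 to 13125 counts. Slc17a6 (VGLUT2) was at 0.17 (SE 0.33, adjusted p = 0.776), with an interval of -0.49 to 0.82. Sncb, the gene of beta-synuclein, was at 0.06 (SE 0.14, adjusted p = 0.802).

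Within the SNARE machinery, both VAMP genes fell and the syntaxin rose. Vamp2, the main vesicle SNARE of forebrain, fell from an implied 52731 to 40818 counts (log2 fold change -0.37, SE 0.09, adjusted p = 0.00119). Vamp1 (ENSMUSG00000030337, plus strand of chromosome 6 from 125215551 to 125245964) fell to 43.8% of wild type (95% interval 34.4 to 55.7, adjusted p = 2.11e-09), but at 76.6 counts per kb it was scarce beside Vamp2 at 12280 per kb, and it made up an implied 0.764% of summed VAMP level per kb in wild type and 0.434% in the knockout. Stx1a, the gene of syntaxin-1A of the plasma membrane, rose from an implied 6613 to 9231 counts (0.48, SE 0.12, adjusted p = 4.87e-04 in the authors' deposited table). Snap25, the gene of the other plasma membrane SNARE, was at -0.23 (SE 0.11, adjusted p = 0.0972), with an interval of -0.44 to -0.03 before correction. Among the genes that recycle SNAREs, Napb (beta-SNAP) fell from an implied 27287 to 20521 counts (-0.41, SE 0.09, adjusted p = 1.97e-04), and Nsf was at -0.27 (SE 0.15, adjusted p = 0.195).

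The complexins, small proteins that bind the assembled SNARE complex, lay on opposite sides of 0. Cplx1 (ENSMUSG00000033615, minus strand of chromosome 5 from 108518554 to 108550024) had the highest level per kb of all 49 genes, 12435, and fell to 53.5% of wild type (95% interval 43.5 to 65.8, adjusted p = 2.23e-07 in the authors' deposited table). Its implied level went from 35471 to 18970 counts. Cplx2 was at 0.64 (SE 0.27) and was not called (adjusted p = 0.0679). Its interval of 0.12 to 1.16 did not overlap that of Cplx1, -1.20 to -0.60. The implied share of Cplx1 in summed complexin level per kb was 85.3% in wild type and 66.6% in the knockout.

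**Figure D3:**
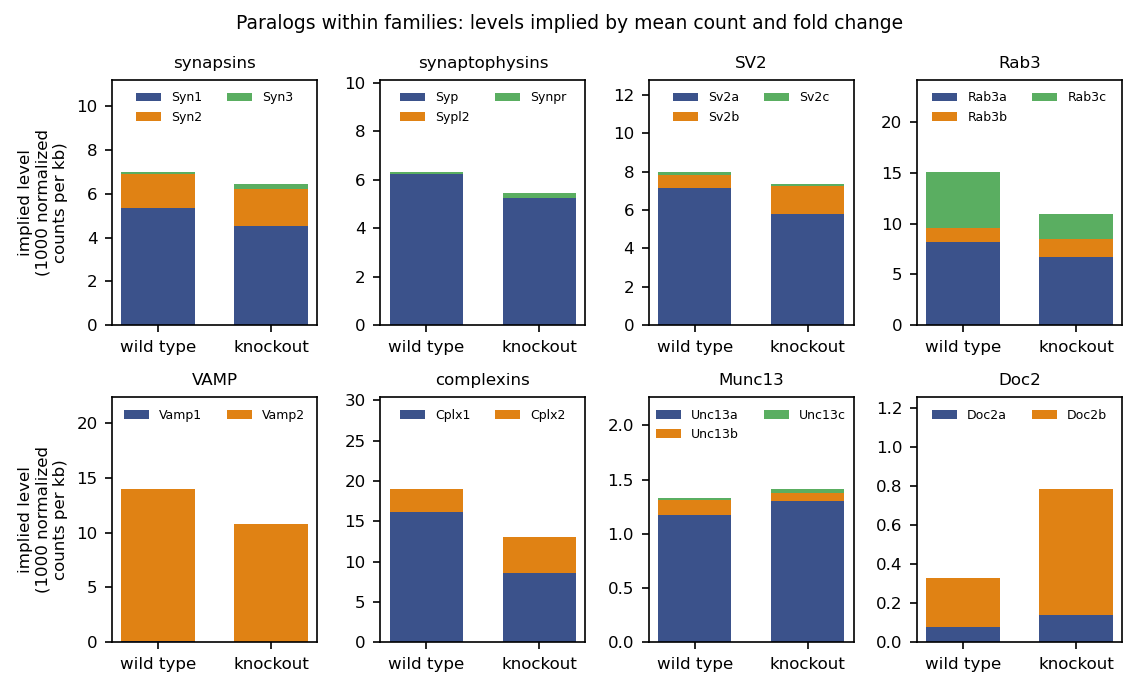
Implied level in wild type and knockout (vertical axis, 1000 normalized counts per kb of exon, a different scale in each panel) of the members of 8 presynaptic families, stacked by gene. Levels are split from the mean count by the fold change and have no error bars. The Rab3 and complexin stacks are lower in the knockout, at 72.25% and 68.5% of wild type, the Doc2 stack is higher, and Sypl2 and Vamp1 are too scarce to see.

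Among the 7 calcium sensor genes, Syt7, Doc2a and Doc2b rose, Rph3a fell, and Syt1, Syt2 and Syt4 were not called. Syt1, the gene of the fast calcium sensor of release in forebrain, had a mean normalized count of 51511 and was at -0.31 (SE 0.13, adjusted p = 0.0705) with an interval of -0.57 to -0.06 before correction. Syt7, the gene of a slow sensor linked to facilitation and asynchronous release, rose from an implied 8906 to 12591 counts (0.50, SE 0.11, adjusted p = 6.61e-05). Doc2b (ENSMUSG00000020848, minus strand of chromosome 11 from 75768966 to 75796049), a sensor linked to spontaneous and asynchronous release, rose 2.57-fold (95% interval 1.94 to 3.40, adjusted p = 5.46e-09 in the authors' deposited table), from an implied 1095 to 2814 counts. Its paralog Doc2a rose 1.77-fold (95% interval 1.30 to 2.40, adjusted p = 0.0027), from an implied 222 to 393 counts. Of the 2803 exon bases of Doc2a, 1103 overlap exons of Ino80e on the opposite strand. Ino80e was at -0.17 (SE 0.11, adjusted p = 0.288), with a mean count of 1057 against 308 for Doc2a. The use of strand in counting is not given, so reads of Doc2a and Ino80e may not be separated. Rph3a, the gene of the Rab3 effector rabphilin, fell to 48.2% of wild type (95% interval 33.6 to 69.0, adjusted p = 8.85e-04), from an implied 11580 to 5579 counts. Syt4 was at -0.29 (SE 0.26) and Syt2, scarce at 114 counts, at 0.24 (SE 0.35). Neither was called.

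Most genes of the active zone scaffold were not called. The large scaffolds Bsn (bassoon) and Pclo (piccolo) were at -0.09 (SE 0.17, adjusted p = 0.751) and 0.08 (SE 0.16, adjusted p = 0.78). Rims1, which links Rab3, Munc13 and calcium channels, was at -0.40 (SE 0.18, adjusted p = 0.0924), and Rims2, Rimbp2 and Ppfia2 lay between -0.12 and -0.05. The 95% intervals of Bsn, Pclo, Rims2, Rimbp2, Unc13a and Ppfia2 all lay within 0.5 of 0 on the log2 scale. Erc2 rose 1.51-fold (95% interval 1.30 to 1.75, adjusted p = 2.27e-06 in the authors' deposited table), from an implied 7476 to 11274 counts. Erc1, the other ELKS gene, was at 0.26 (SE 0.12, adjusted p = 0.121). Ppfia3, a liprin-alpha gene, rose by little, from an implied 5835 to 6873 counts (0.24, SE 0.08, adjusted p = 0.0271).

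Munc13 proteins prime docked vesicles, and here the main gene was not called while the scarce ones, the last pair of the printed windows, moved in opposite directions. Unc13a, which held an implied 88.1% of summed Munc13 level per kb in wild type, was at 0.16 (SE 0.12, adjusted p = 0.357), with an interval of -0.07 to 0.38. Its exons overlap 495 bases of Colgalt1 on the opposite strand, a gene that rose (0.52, SE 0.10). Unc13b (ENSMUSG00000028456, plus strand of chromosome 4 from 43058953 to 43264871) fell to 51.0% of wild type (95% interval 40.7 to 64.1, adjusted p = 3.84e-07 in the authors' deposited table), from an implied 3228 to 1647 counts. Unc13c, best known from cerebellum, rose 1.93-fold (95% interval 1.20 to 3.12, adjusted p = 0.0363), from an implied 146 to 282 counts. Unc13c lost its call when p-values were adjusted over every gene with a p.

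In endocytosis, Sh3gl2, the gene of endophilin A1, rose from an implied 8413 to 11764 counts (0.48, SE 0.13, adjusted p = 0.00135). The other members were not called in the authors' deposited table. Dnm1, the gene of the neuronal fission GTPase dynamin-1, was at -0.20 (SE 0.17) and Synj1, the gene of the lipid phosphatase synaptojanin-1, at -0.12 (SE 0.16). Amph, the gene of amphiphysin, was at -0.00 (SE 0.13) with an interval of -0.25 to 0.25. Bin1, its relative, was at 0.17 (SE 0.08, adjusted p = 0.111).

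Of 14 families with 2 or more members here, 7 had at least 2 called members, and in 5 of these the calls went both ways: synapsins, the synaptophysin family, SV2, Rab3 and Munc13. With 13 rises and 12 falls among the called members, mixed directions within a family can be common without any pattern among paralogs. No such count was made for families of other genes, so it is not read as a trait of these families. In VAMP both called genes fell and in Doc2 both rose. The most abundant transcripts tended to lie lower. Of the 14 members above 4000 normalized counts per kb, 13 lay below 0, 7 of them called, with a median log2 fold change of -0.27, and none rose. This level was chosen after the values were seen. Over all 343 tested genes above it, 68.8% lay below 0, 24.8% were called lower and 13.4% were called higher. Against genes of like exon length, the same 13 of 14 count resulted, and the share over all genes was 60.1%. Across the 49 genes, Spearman's rho between level per kb and log2 fold change was -0.34, and -0.28 against genes of like exon length. Over all tested genes with an exon length it was -0.01. These are descriptions over genes that share their libraries.

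**Figure D4:**
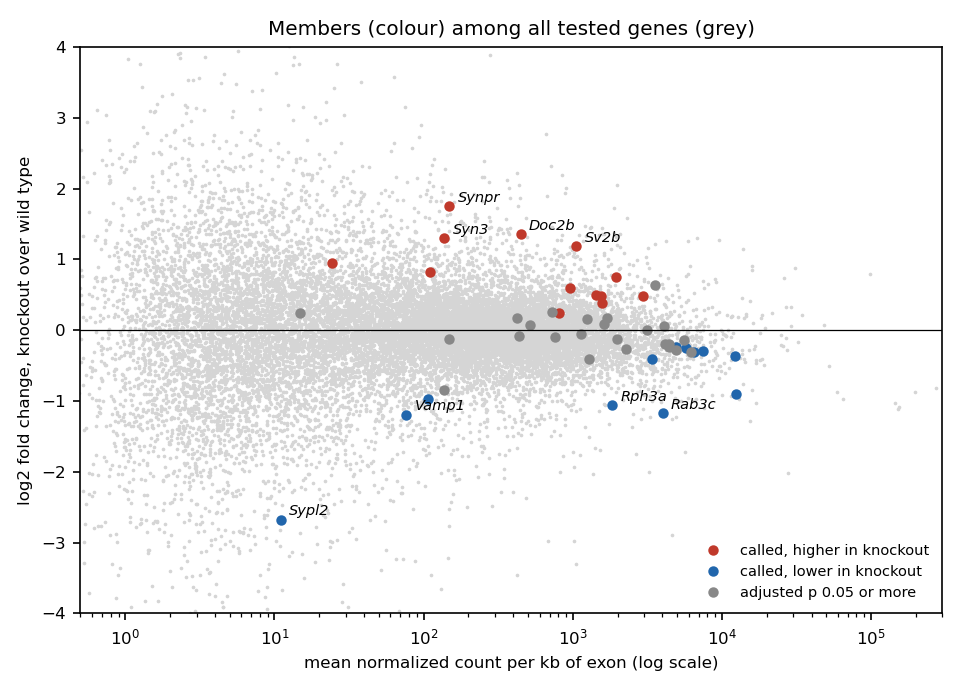
Log2 fold change, knockout over wild type (vertical axis), against mean normalized count per kb of exon (horizontal axis, log scale) for all tested genes with an exon length (grey, shown between -4 and 4) and the 49 members (colour). The members at the right edge of their range, above 4000 counts per kb, lie below 0 in 13 of 14 cases, and those that rose lie to the left of them.

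Other genes of the same pathway were read from lists drawn up by role. Of 16 other vesicle proteins and transporters, 2 rose and 3 fell. Scamp5, a vesicle membrane protein gene, fell (log2 fold change -0.29, SE 0.07) in the authors' deposited table. Of 20 other SNARE machinery genes tested, 1 rose and 4 fell. Napa, the gene of alpha-SNAP, fell (-0.39, SE 0.09), close to the value of Napb, and Stxbp6 rose (1.23, SE 0.31). Of 20 other synaptotagmins and calcium sensors, 4 rose and 2 fell, with Syt16 (0.70, SE 0.11) and Syt6 (1.27, SE 0.30) leading. Of 17 other active zone genes, 3 rose and none fell, with Lin7c (0.87, SE 0.15) and Ppfibp1 (0.79, SE 0.17) leading. Of 30 other endocytosis genes, 8 rose and 3 fell, led by Sh3glb1 (0.78, SE 0.11) and Dnm2 (0.41, SE 0.09). The shares called ran from 17.6% for the active zone list to 36.7% for the endocytosis list. They stand against 21.8% of all tested genes and 30.6% of those with a mean count of 1000 or more. The median mean count was 4176 for the active zone list and 6287 for the endocytosis list, against 438 over all tested genes.

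Markers of cell types that a cortical culture can hold were also read, and their part in the results above was not tested. The share called was 89.5% for projection neuron, 61.5% for immature neuron, 58.3% for microglia and 47.6% for interneuron markers. It was 38.5% for vascular, 30.8% for astrocyte and 25% for oligodendrocyte markers. Over all tested genes it was 21.8%, so the astrocyte and oligodendrocyte lists stood little above that share. In bulk RNA, fewer cells of a type and less RNA per cell cannot be told apart. Of 21 markers of GABAergic interneurons, 10 fell and none rose, led by Npy (log2 fold change -2.89, SE 0.41) and Lhx6 (-1.26, SE 0.27), and their summed implied level was 211862 counts in wild type and 120883 in the knockout. Of 19 markers of cortical projection neurons, 15 rose and 2 fell, led by Etv1 (1.98, SE 0.24) and Ldb2 (2.76, SE 0.36), with summed implied levels of 32980 and 65380 counts. Of 13 immature neuron markers, 8 rose and none fell, led by Dcx (1.32, SE 0.21) and Ncam1 (0.58, SE 0.10), with sums of 168211 and 265289 counts. Astrocyte markers gave 3 higher and 1 lower of 13, with sums of 15527 and 27158 counts, led by Slc1a2 (0.93, SE 0.24) and Glul (0.72, SE 0.20). Microglia and macrophage markers gave 7 lower of 12 tested, led by Cd68 (-2.29, SE 0.40) and Csf1r (-3.09, SE 0.66), with sums of 1403 and 602 counts, and P2ry12 and Tmem119 were too low to be tested, at mean counts of 1.52 and 1.02. Oligodendrocyte markers gave 2 higher of 8 tested, Mog (0.99, SE 0.17) and Cnp (0.51, SE 0.20), with sums of 1897 and 2321 counts, and Sox10 and Mag were too low to be tested, at 0.29 and 1.39 counts. Vascular and fibroblast markers gave 1 higher and 4 lower of 13, with sums of 3216 and 2985 counts. They were led by Tagln (-1.42, SE 0.38) and Cldn5 (-6.24, SE 1.74), the latter at a mean count of only 3.00. Sums rest mostly on abundant genes, such as Slc1a2 with an implied 9274 and 17705 counts and Cd68 with 835 and 171. Against these markers, the neuronal genes Snap25 and Syt1 stood at the 98.4 and 99.0 percentile of all tested genes in level per kb.

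SEs ran from 0.08 for Syp to 0.77 for Sv2c, with a median of 0.15. For 9 members the SE was above that of 90% of the 500 tested genes nearest in mean count: Syn2, Syn3, Synpr, Sv2c, Slc17a7, Slc17a6, Cplx2, Syt4 and Rph3a. The libraries of these 9 genes thus scattered more than those of most genes at that level, and 4 of them (Syn3, Synpr, Slc17a7 and Rph3a) were called. For 18 members the SE was below the median of genes of like count, among them Syn1, Syp, Syngr3, Bin1 and Ppfia3, so that log2 differences near 0.25 were called in Syp, Syn1 and Ppfia3. Of the 24 genes not called, 13 had 95% intervals within 0.5 of 0.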

How the data were processed

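Polyadenylated RNA of 8 libraries, 4 per genotype, was sequenced after a stranded library preparation, per the labels. Only the authors' own comparison table was analysed. The submitters' processing notes name mm10, DESeq2 and DESeq. For the aligner, counting tool, strand setting and annotation, nothing is given in the sources used here. The deposited signal is a mean over all libraries of counts divided by size factors, per the file headers. The log2 fold change and SE, as deposited, come from the authors' model. The deposited score is the Wald statistic, checked to equal the fold change over its SE (largest gap 2.86e-07). The deposited p-value and adjusted p-value were checked to be its normal p and the Benjamini-Hochberg adjustment over 18085 genes, with gaps up to 0.757%. Another 8135 genes had no adjusted p, and 9 had no p.

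Signs were turned so that H2bc21 is lower in the knockout. Intervals are 95% normal intervals from the SE. Implied genotype levels assume that the 2 genotype means average to the mean count. Exon length is the union of exons in GENCODE M21 (GRCm38, the assembly of mm10), with 26039 rows matched. Depth per library was not analysed; mean normalized counts summed to 3.96e+07, and precision is that of the SE. No count model was run, and the design allowed for a comparison table. Alternatives were the call threshold, the set of genes adjusted over, the null distribution, exon length centring and, chosen after seeing the data, a rescaled Wald statistic. The members and lists were chosen with earlier results of these data known. Genes named are the target, all called members, the 2 members of each role highest per kb and members with called paralogs, the others by range or for their interval, and up to 2 called genes of smallest adjusted p per further list, 1 of which is not reported here. The call rule was run on simulated Wald statistics drawn with normal noise of the deposited SEs. That run checks the code and cannot show whether the normal null fits these data. Vamp7, Syt8 and Gjb6 of the lists were not analysed here. Python 3.11.15, numpy 2.4.6, pandas 2.3.3, scipy 1.17.1, statsmodels 0.14.6 and matplotlib 3.10.9 were used.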

Additional observations from a re-analysis of the deposited data

How the results depend on the processing

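The 13 rises and 12 falls became 0 and 0 under a t distribution with 6 degrees of freedom, where the members' smallest adjusted p was 0.0645 and that of the 25 called members ran up to 0.183. With the Wald statistic divided by its robust spread of 1.95 over all tested genes, an alternative chosen after seeing the data, 0 rises and 1 fall remained, that of Sypl2, among 71 genes called in all. The cause of these losses is the wider null by construction. At an adjusted p of 0.01, 9 rises and 10 falls were called, and at 0.1, 14 and 15, with Cplx2, Rims1, Snap25 and Syt1 added. Centred within exon length bins, 11 rose and 12 fell: Ppfia3, Rab3a, Syn1 and Unc13c lost their call and Snap25 and Syt1 gained one. The centre of the members, by median or by a mean weighted by inverse squared SE, stayed between -0.09 and -0.06 over its 4 alternatives. Only exon length centring altered the fold changes, so a sign could change in that alternative alone. No called member changed sign there. No paired analysis was possible because the table holds no values per library. Leaving out each replicate was not run for the same reason.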
